A study of Mus musculus with 8 samples.

Results

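DUKs, an unselected outbred control line of mice, was compared with DBA, an inbred strain, in epididymal fat, the fat pad that lies against the epididymis of the male. The comparison used 4 of the 8 arrays of the series, 1 chip A array and 1 chip B array for each line, which were chosen by their line labels alone. Each line was a single pool of RNA from 20 males aged 42 days, and both chips of a line carried that same pool. The series also holds DU6, a line selected for high body weight, and DU6i, an inbred line derived from it, prepared in the same way. Their arrays served to place DUKs and DBA among the 4 lines. They also entered the signal floor of each chip, the quantile normalisation and the choice of the probe set that stood for a gene. That DUKs is unselected and outbred, that DU6 was selected for weight and that DU6i derives from it is general knowledge of these lines. The labels name the lines, the tissue, the age and the pooling, and give DBA without a substrain.

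White fat stores triglyceride in adipocytes, which also secrete hormones such as leptin and adiponectin. Between the adipocytes lie blood vessels, fibroblasts, macrophages and lymphocytes, and the surface of the pad is covered by mesothelium. The epididymal pad borders organs with very abundant transcripts of their own, namely the testis with its germ cells, the epididymis and the seminal vesicles. In RNA from whole tissue, fewer cells of a type and less RNA per cell cannot be told apart.

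Each line had 1 pool, so no test and no p-value was possible, and a difference between DUKs and DBA cannot be told apart from a difference between these 2 pools. The values are scaled array signals without a physical unit, and their precision is limited by the small number of arrays. A signal at or under the floor of its chip, 1022.8 on chip A and 2258.25 on chip B, was set to the floor, and a ratio with 1 line at the floor is given as a bound ("at least"). The SD of a single log2 ratio, taken from the 389 genes represented by a pair of measurable probe sets, was 0.40, or 1.32-fold. It covers the spread between probe sets, and not that between animals or pools. A difference of at least 2-fold was counted, which is a limit on size and not a test.

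The pools differed along the mRNA of a control transcript. For pyruvate carboxylase the probe set at the 5' end had 14.2% of the 3' signal in DUKs and 1.46% in DBA on chip A, with 1.08% in DU6 and 11.7% in DU6i. On chip B these shares were 14.8% in DUKs and 1.15% in DBA. For actin they were 58.0% in DUKs and 43.0% in DBA on chip A, and 60.2% and 52.7% on chip B. For Gapdh they were 84.7% in DUKs and 82.1% in DBA on chip A, and 71.1% in DUKs and 116% in DBA on chip B, so that the controls did not all run one way. The part of this difference in the results below was not tested.

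Of 13069 probe sets compared, 5691 were above the floor in at least 1 of the 2 lines. Among them 342 (6.01%) were 2-fold or more higher in DUKs and 301 (5.29%) lower, of which 101 and 93 were bounds. By gene, 190 of 3570 (5.32%) were higher in DUKs and 198 (5.55%) lower, with a median log2 ratio of -0.05 over all genes. At 4-fold 9 genes were higher and 20 lower. Of the called genes, 63 had a second probe set above the floor, which pointed the same way in 55 and also reached 2-fold in 19. Probe sets whose names end in _f_at or _s_at can share sequence with related genes, and several of the values below come from such probe sets.

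**Figure D1:**
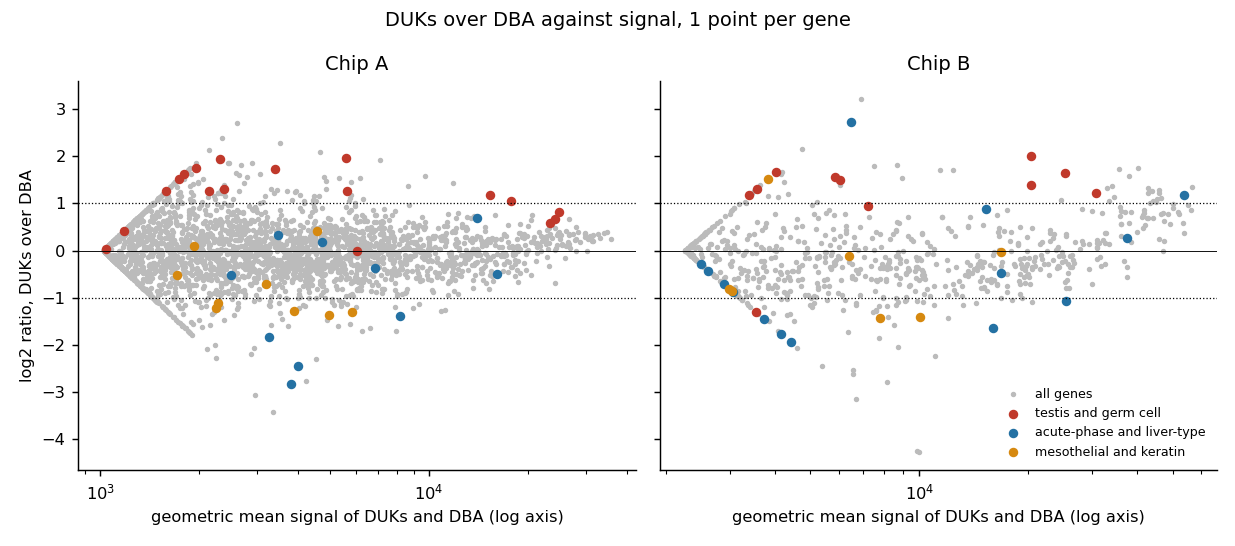
Log2 ratio of DUKs over DBA (vertical axis) against the geometric mean signal of both lines (horizontal log axis), 1 point per gene, chip A on the left and chip B on the right; dotted lines mark 2-fold. Germ cell genes (red) lie mostly above 2-fold on both chips, liver-type (blue) and keratin (orange) genes mostly below 0, and most of the brightest genes of chip B lie above 0.

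Among named genes the largest differences were in secretions of the seminal vesicle, and they ran in both directions. Svs5, a seminal vesicle secretory protein, had a signal of -536 in DUKs and 43837 in DBA, with -575 in DU6 and -433 in DU6i. Svs4, its neighbour in the same gene family on chromosome 2, had 72 in DUKs and 42807 in DBA, with -36 in DU6 and 253 in DU6i. Svs2, the family member that forms much of the copulatory plug, had -1430 in DUKs and 19922 in DBA, with -555 in DU6 and -1002 in DU6i. By these probe sets all 3 were far above the floor in DBA and under it in the other 3 lines, while a second Svs4 probe set, on chip A, was under the floor in every line. The bounds were at least 19.4-fold lower in DUKs for Svs5, 19.0-fold for Svs4 and 8.82-fold for Svs2. The other direction was held by Sbp, the spermine-binding protein of accessory gland secretion, with 21028 in DUKs and 312 in DBA, and 308 in DU6 and 1295 in DU6i, at least 9.31-fold higher in DUKs. Spink1, a secreted trypsin inhibitor abundant in the accessory glands, had 5876 in DUKs and 328 in DBA, with 639 in DU6 and 645 in DU6i, at least 2.60-fold higher. Sbp and Spink1 were above the floor in DUKs alone, as Svs2, Svs4 and Svs5 were in DBA alone. Of the 9 measured genes of the seminal vesicle and accessory gland list these 5 alone reached 2-fold, 2 of them higher in DUKs and 3 lower. The summed signal of the list was 34092 in DUKs and 114013 in DBA, with 10230 in DU6 and 5704 in DU6i, and its part in other results was not tested. A further 7 listed genes, such as Sva, Msmb, Klk1 and Azgp1, were under the floor in both lines.

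The upstream sequences of the pair with the largest difference are shown from RefSeq (GRCm38.p6), as the 120 bases before the annotated start, 5' to 3'. Capitals mark the letters TATATAAA, a TATA box form, which a search of both strands found once in each, beginning 30 bases before the start.
Svs4, chr2:164278308-164278427, minus strand: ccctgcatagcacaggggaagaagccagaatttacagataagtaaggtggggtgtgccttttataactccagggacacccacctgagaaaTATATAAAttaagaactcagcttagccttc
Svs5, chr2:164332645-164332764, plus strand: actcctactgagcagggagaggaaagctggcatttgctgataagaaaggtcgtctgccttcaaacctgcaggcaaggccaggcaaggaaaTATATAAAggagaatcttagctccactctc
In the 250 bases before the start, these letters stood in 3 of the 8 measured seminal vesicle list genes that have a promoter in the table and in 1.58% of all 27025 genes of the table.

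Genes of germ cells formed the group with the highest median. Of 29 measured testis and germ cell genes, 21 were 2-fold or more higher in DUKs and 1 lower, with a median log2 ratio of 1.27 against -0.05 over all genes. Here and below, a measured gene is one above the floor in DUKs, in DBA or in both. The other 14 listed genes on the chips were under the floor in both lines. The list's summed signal was 414750 in DUKs and 181330 in DBA, with 97371 in DU6 and 90889 in DU6i. DUKs had the highest signal of the 4 lines for 27 of the 29 genes, against 847 of all 3570 genes. Pdha2, Hspa2, Hspa1l, Acrv1, Tcp10a, Tssk1, Ddx4 and Pcsk4 were bounds that counted as measured only through DUKs, and Inhbb only through DBA. The 21 and the 27 genes include such bounds. Over the list's genes above the floor on both arrays the median was 1.29. For 19 of the 29 DUKs came first and DBA next, above both DU6 and DU6i, an order held by 242 of all 3570 genes. The part of germ cell RNA in the other results was not tested. After quantile normalisation the list's median was 1.35, and on chips A and B taken apart it was 1.26 and 1.40.

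Proteins of the sperm nucleus were among the brightest of these. Tnp1, the transition protein that replaces histones in the spermatid, had 47073 in DUKs and 20147 in DBA, with 14689 in DU6 and 10822 in DU6i, 2.34-fold higher in DUKs. Prm1, the protamine that packs sperm DNA, had 28545 in DUKs and 19113 in DBA, with 8576 in DU6 and 8740 in DU6i. The log2 ratio of Prm1 was 0.58, below 2-fold. In both genes DUKs was the highest line and DBA the next.

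The genes named here of the sperm tail, the sperm surface and earlier germ cell stages showed the same order of DUKs over DBA. Odf1, an outer dense fibre protein of the sperm tail, had 44685 in DUKs and 14282 in DBA, with 9670 in DU6 and 1866 in DU6i. Akap4, the main protein of the fibrous sheath, had 3574 in DUKs and 1066 in DBA and was under the floor in DU6 and DU6i, 3.35-fold higher in DUKs. Adam2, the sperm surface protein fertilin beta, had 4551 in DUKs and 1177 in DBA, with 384 in DU6 and 373 in DU6i, 3.87-fold higher. DUKs and DBA were thus the only lines with Akap4 and Adam2 above the floor. Ddx4, an RNA helicase that marks the germ line, had 7198 in DUKs and was under the floor in DBA, at least 3.19-fold higher. Syce2, a protein of the synaptonemal complex of meiosis, had 5526 in DUKs and 1516 in DBA, with 2043 in DU6 and 1028 in DU6i. It was 3.65-fold higher in DUKs than in DBA, but DU6 lay above DBA. Syce2 is outside the list and was named for being among the 12 highest genes. The list genes Sycp1, Sycp3 and Dazl, also of earlier stages, were under the floor in DUKs and DBA.

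Testis forms of widely used enzymes and chaperones lay higher in DUKs as well. Dnajb3, a chaperone of spermatids, had 40844 in DUKs and 10142 in DBA, with 2833 in DU6 and 6005 in DU6i. It was 4.03-fold higher in DUKs, and its second probe set 3.53-fold higher. Hspa4l, an Hsp70 relative abundant in testis, had 11011 in DUKs and 2822 in DBA, with 1388 in DU6 and 1377 in DU6i, 3.90-fold higher. Pgk2, the phosphoglycerate kinase of spermatogenic cells, had 6180 in DUKs and 1869 in DBA, with 1262 in DU6 and 857 in DU6i, 3.31-fold higher. Ldhc, the lactate dehydrogenase of sperm, had 23076 in DUKs and 10134 in DBA, with 3450 in DU6 and 2604 in DU6i, 2.28-fold higher. In all 4 genes DUKs was the highest line. Outside the list, Cetn1, the centrin of sperm, was 3.62-fold higher in DUKs, Rpl39l, a ribosomal protein form of the testis, 3.60-fold, and Pabpc2, a testis poly(A)-binding protein, 3.51-fold. They were named for being among the 12 genes highest in DUKs against DBA. The exceptions on the list were few. Inhbb, an inhibin subunit made by Sertoli cells and also by adipocytes, had 2182 in DUKs and 5544 in DBA, at least 2.45-fold lower. Odf2, which is also a centrosome protein of other cells, had 6019 in DUKs and 6082 in DBA.

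The upstream sequences of Prm1 and Tnp1 are shown because the list's genes lay higher together. They are the 120 bases before the annotated start in RefSeq (GRCm38.p6), 5' to 3'. Capitals mark matches to TGANGTCA on either strand, letters close to the site of the cAMP-response element family, to which the germ cell factor CREM is known to bind in mouse.
Prm1, chr16:10796824-10796943, minus strand: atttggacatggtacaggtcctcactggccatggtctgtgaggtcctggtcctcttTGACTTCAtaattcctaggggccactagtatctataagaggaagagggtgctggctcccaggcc
Tnp1, chr1:73015900-73016019, minus strand: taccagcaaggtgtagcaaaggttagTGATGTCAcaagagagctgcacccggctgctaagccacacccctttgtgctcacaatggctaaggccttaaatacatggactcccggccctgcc
In the 250 bases before the start the letters stood in 6 of the 22 measured list genes that have a promoter in the table, namely Akap4, Gapdhs, Hspa1l, Prm1, Tnp1 and Tssk1, and in 8.55% of all 27025 genes of the table. The letters were chosen after these sequences had been read, and a match is a description and not a site.

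**Figure D2:**
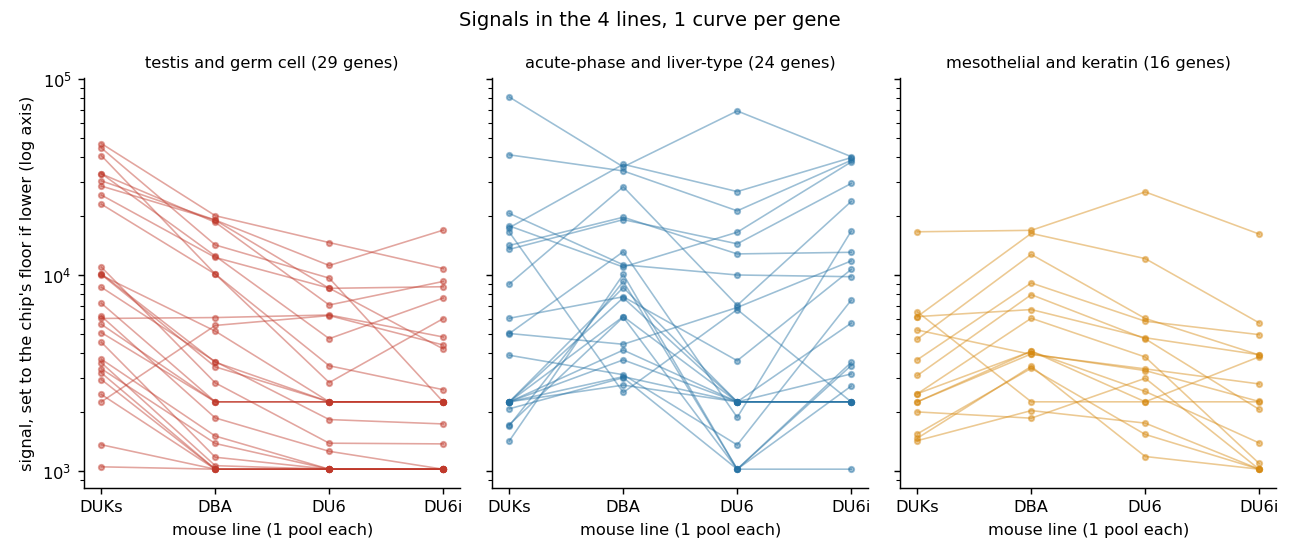
Signals (vertical log axis, set to the floor of the chip where lower) in DUKs, DBA, DU6 and DU6i, 1 curve per measured gene of 3 lists. Most of the 29 germ cell genes step down from DUKs over DBA to DU6 and DU6i. Of the 24 liver-type genes 10 are lower in DUKs and DU6 than in DBA and DU6i, and 12 of the 16 keratin genes peak in DBA.

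Genes of liver-type plasma proteins lay lower in DUKs. Of 24 measured genes of the acute-phase and liver-type list 9 were 2-fold or more lower and 2 higher, with a median log2 ratio of -0.52. Fgg, the gamma chain of fibrinogen, had 1427 in DUKs and 10102 in DBA, with 883 in DU6 and 3591 in DU6i, 7.08-fold lower in DUKs. Hpx, the haem carrier hemopexin, had 1706 in DUKs and 9299 in DBA, with 884 in DU6 and 2717 in DU6i, 5.45-fold lower. Pzp, a plasma protease inhibitor outside the list, had 1339 in DUKs and 6147 in DBA, with 201 in DU6 and 3285 in DU6i, 4.59-fold lower. DBA was the highest line for all 3, and DU6i the next. Apoa2, an apolipoprotein of high-density lipoprotein, had 9021 in DUKs and 28287 in DBA, with 7023 in DU6 and 23812 in DU6i, 3.14-fold lower. Vtn, the adhesive plasma protein vitronectin, was 3.54-fold lower, and Ambp, the precursor of alpha-1-microglobulin, at least 3.83-fold lower with a second probe set 3.24-fold lower. For 10 of the 24 genes both DBA and DU6i lay above both DUKs and DU6, against 371 of all 3570 genes. The summed signal of the list was 265139 in DUKs and 292030 in DBA, with 204576 in DU6 and 305205 in DU6i, and its part in other results was not tested.

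Of the 7 genes above 0 on this list, Saa3 and Hp reached 2-fold. Saa3, a serum amyloid A form made in fat and macrophages, had 16602 in DUKs and 2521 in DBA, with 6684 in DU6 and 2123 in DU6i. It was 6.59-fold higher in DUKs, and its second probe set at least 4.89-fold higher. Hp, haptoglobin, which adipocytes also make, had 81298 in DUKs and 35757 in DBA, 2.27-fold higher as scaled but 1.22-fold after quantile normalisation. Albumin (Alb) had 41207 in DUKs and 34102 in DBA, a log2 ratio of 0.27, and Ttr and Apoa1, both abundant in liver, were under the floor in DUKs and DBA alike. Outside the list, 12 further genes named after their values were seen, mostly enzymes of hepatocytes, were 2-fold or more lower in DUKs. Cyp3a11, a drug-metabolising P450 enzyme, had 603 in DUKs and 7365 in DBA, with 39 in DU6 and 8557 in DU6i. Ass1, the argininosuccinate synthase of the urea cycle, had 2764 in DUKs and 7027 in DBA, with 280 in DU6 and 9658 in DU6i. Bhmt, of homocysteine metabolism, had 1117 in DUKs and 3286 in DBA, with 278 in DU6 and 3178 in DU6i. In each of these 3 genes DBA and DU6i were high, and DUKs and DU6 low, an order held by 8 of the 12. Cyp2c29, a P450 enzyme, was above the floor in DBA alone.

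Keratins and epithelial junction proteins also lay lower in DUKs. Of 16 measured genes of the mesothelial and keratin list 7 were 2-fold or more lower and 1 higher, with a median log2 ratio of -0.84. Krt8, a keratin of simple epithelia, had 6152 in DUKs and 16360 in DBA, with 12163 in DU6 and 5714 in DU6i. It was 2.66-fold lower in DUKs, and 1.76-fold lower by a second probe set. Its partner Krt18 had 3078 in DUKs and 7959 in DBA, with 4736 in DU6 and 2066 in DU6i, 2.59-fold lower. Cdh1, the epithelial cadherin, had 4721 in DUKs and 12772 in DBA, with 6018 in DU6 and 3919 in DU6i, 2.71-fold lower. DBA was the highest line for each of these, and for 12 of the 16, against 1059 of all 3570 genes. Dsp and Dsg2, both of desmosomes, were 2.43-fold and 2.16-fold lower, and the adhesion molecule Epcam 2.33-fold. A second Dsp probe set was 1.94-fold lower. Jup, which joins cadherins to the cytoskeleton, ran the other way, with 6509 in DUKs and 73 in DBA, at least 2.88-fold higher. A second Jup probe set was under the floor in every line. The mesothelial markers gave no such picture: Upk3b had a log2 ratio of 0.41 and Wt1 of -0.12, and Msln was under the floor in DUKs and DBA. The summed signal was 66810 in DUKs and 102744 in DBA, with 83996 in DU6 and 51821 in DU6i, and its part in other results was not tested. For 9 of the 16 genes DBA and DU6 both lay above DUKs and DU6i, the pairing of the pyruvate carboxylase control, which 886 of all 3570 genes showed.

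Epididymal genes did not move as 1 group. Gpx5, the secreted glutathione peroxidase of the epididymis, had 52044 in DUKs and 20753 in DBA, with 49126 in DU6 and -2544 in DU6i, 2.51-fold higher in DUKs as scaled and 2.07-fold after quantile normalisation. Adam28, a metalloprotease present in epididymal epithelium and lymphocytes, had 5106 in DUKs and 24037 in DBA, with 8176 in DU6 and 1846 in DU6i, 4.71-fold lower. Ros1, a receptor of the initial segment, had 881 in DUKs and 5719 in DBA, with 1668 in DU6 and 299 in DU6i, at least 2.53-fold lower. Crisp2, on this list but made mainly in the testis, was 2.59-fold higher. Adam7, an epididymal surface protein, had 23896 in DUKs and 21665 in DBA. Of the 11 measured genes 2 were 2-fold or more higher and 3 lower, with a median of 0.14.

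Most genes of the mature adipocyte lay slightly higher in DUKs, and 21 of the 22 on the chips were measured, as the tissue label would have it. Of these 21 genes 17 had a log2 ratio above 0, 5 were 2-fold or more higher and 1 lower, and the median was 0.35. Lep, the satiety hormone leptin, had 8696 in DUKs and 3837 in DBA, with 12446 in DU6 and 27777 in DU6i, 2.27-fold higher in DUKs. DBA was thus the lowest line for Lep and DUKs the next. Cebpa, a transcription factor of adipocyte differentiation, had 9751 in DUKs and 3735 in DBA, with 5948 in DU6 and 7988 in DU6i, 2.61-fold higher. Adiponectin (Adipoq) had 36670 in DUKs and 28894 in DBA, a log2 ratio of 0.34, and Pparg, the main regulator of adipocyte differentiation, had 4914 in DUKs and 3489 in DBA, a log2 ratio of 0.49. The lipases Lpl (0.30) and Lipe (0.35) and the fatty acid carrier Fabp4 (0.30) lay within 1 SD of a single log2 ratio. Of the 4 genes below 0, Slc2a4 among them, only Adig, a small adipocyte protein, reached 2-fold, with 288 in DUKs and 10986 in DBA, and 8680 in DU6 and 4730 in DU6i. It was under the floor in DUKs alone, at least 10.7-fold lower. Fabp3, a fatty acid carrier of muscle and brown fat, ran the other way with 6625 in DUKs and 990 in DBA, at least 6.48-fold higher. Cox8b, a cytochrome c oxidase subunit of muscle and brown fat, was at least 4.82-fold lower, and Elovl6, a fatty acid elongase, 3.04-fold lower. Cox8b was the only gene of the brown fat list that was measured. The other 4 on the chips, Ucp1 among them, were under the floor in both lines.

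The other adipocyte genes at 2-fold, Dgat2, Gpd1 and Cidec, were among the brightest of chip B, where the range of the arrays differed. The 99th percentile of chip B signals was 52203 in DUKs and 33622 in DBA, with 49489 in DU6 and 34692 in DU6i, and on chip A it was 27552 in DUKs and 23450 in DBA. Dgat2, the last step of triglyceride synthesis, was 2.53-fold higher in DUKs as scaled and 1.36-fold after quantile normalisation. Gpd1 was 2.34-fold and 1.52-fold higher on these scales, and Cidec, a lipid droplet protein, 2.08-fold and 1.34-fold. After quantile normalisation the adipocyte list had a median of 0.13 and 2 genes at 2-fold or more higher, while Lep stood at 2.48-fold and Cebpa at 2.93-fold. For 40 genes with a chip B mean signal over 20000 a chip A probe set was also above the floor in both lines, and 8 of them were 2-fold or more higher in DUKs on chip B and 0 on chip A. Apoe had 64660 in DUKs and 19563 in DBA on chip B, 3.31-fold higher, and 23450 in DUKs and 17847 in DBA on chip A, 1.31-fold higher. Aldoa was 2.42-fold higher on chip B and 1.27-fold on chip A, and Gsn 2.42-fold and 1.36-fold. A 2-fold difference of a very bright chip B gene was thus not seen on chip A for these genes.

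**Figure D3:**
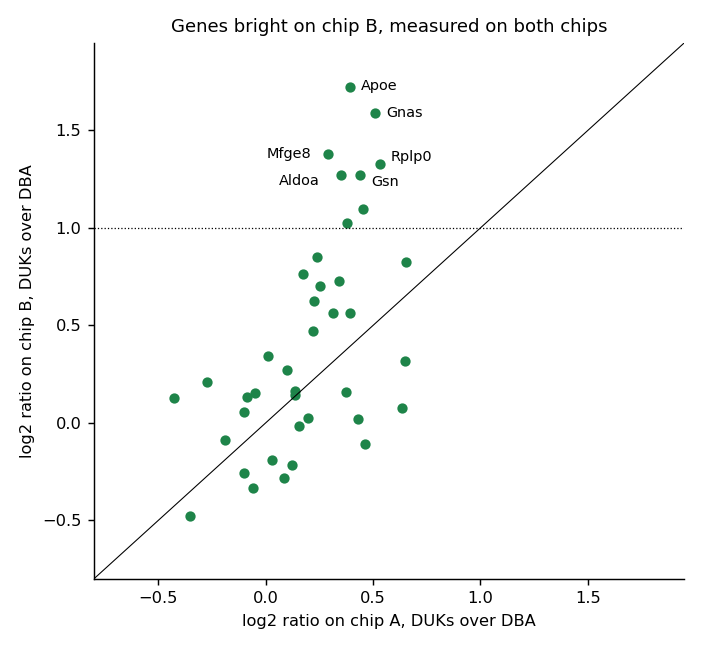
Log2 ratio of DUKs over DBA on chip B (vertical axis) against that on chip A (horizontal axis) for 40 genes with a chip B mean signal over 20000, 1 point per gene; the solid line marks equal ratios and the dotted line 2-fold. The 8 genes above the dotted line, led by Apoe at 1.72 on chip B and 0.39 on chip A, lie left of 2-fold on chip A.

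Macrophage and myeloid genes lay mostly higher in DUKs. Of 24 measured 21 had a log2 ratio above 0, against 46.6% of all genes, with a median of 0.38, and 2 were 2-fold or more higher. DBA was the lowest of the 4 lines for 17 of them, against 679 of all 3570 genes. Ccr2, the receptor that brings monocytes into tissue, had 5385 in DUKs and 726 in DBA, with 2163 in DU6 and 2574 in DU6i, at least 5.27-fold higher in DUKs. Ctss, a lysosomal protease of antigen-presenting cells, had 9196 in DUKs and 4287 in DBA, 2.15-fold higher. Cd68 (0.77), Adgre1 (0.21) and Csf1r (0.06), all macrophage markers, were below 2-fold.

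Among 9 measured neutrophil and mast cell genes 7 had a log2 ratio above 0, against 46.6% of all genes. Of the 9, 3 were 2-fold or more higher in DUKs, against 5.32% of all genes. Ngp, a granule protein of developing neutrophils, had 4444 in DUKs and 1192 in DBA, with 2072 in DU6 and 692 in DU6i, 3.73-fold higher, and Tpsab1, a mast cell tryptase, was 2.72-fold higher. Of the lymphocyte list 8 genes were measured and 22 were under the floor in both lines, the T cell receptor genes Cd3d, Cd3e and Cd3g among them. Ms4a1, the B cell antigen CD20, was 2.27-fold higher, and Igha, the heavy chain of immunoglobulin A, 2.85-fold. Jchain, which links immunoglobulin chains, was at least 2.58-fold higher. Second probe sets of Ms4a1 and Jchain were under the floor in every line. Ighm, the heavy chain of immunoglobulin M, had log2 ratios of 0.64 on chip A and 0.07 on chip B. Interferon-induced genes had a median of 0.36, and 13 of 21 were highest in DUKs of the 4 lines, against 847 of all 3570 genes. Cytokine and chemokine genes had a median of -0.10, with 8 of 14 below 0, against 1908 of all 3570 genes. Of the 14, 1 was higher and 1 lower at 2-fold, against 5.32% and 5.55% of all genes. Of the interferon-induced genes only Irf7, which drives type I interferon production, reached 2-fold, with 3565 in DUKs and 1525 in DBA. Iigp1 and Irf1, which interferon gamma induces, lay lower at -0.90 and -0.65.

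Antigen presentation held a gene that was near absent outside DBA. H2-Ea, the alpha chain of the class II molecule H2-E, which several mouse haplotypes are known to lack, had 406 in DUKs and 8566 in DBA, with 195 in DU6 and 218 in DU6i. It was at least 8.38-fold lower in DUKs, and a second probe set on chip B at least 3.38-fold lower. The beta chain H2-Eb1 had 8626 in DUKs and 12279 in DBA, with 884 in DU6 and 1090 in DU6i, a log2 ratio of -0.51. A second H2-Eb1 probe set had 4111 in DUKs and 5084 in DBA, with 3544 in DU6 and 3691 in DU6i. The beta chain was thus above the floor in DUKs and DBA by both probe sets, while the alpha chain was above it in DBA alone. Another H2-Ea probe set, on chip A, was under the floor in every line. In the class I pathway, the peptide transporter Tap1 was at least 2.14-fold lower in DUKs, and the immunoproteasome subunits Psmb8 (-0.61), Psmb9 (-0.62) and Psmb10 (-0.85) lay lower without reaching 2-fold. The class I heavy chain H2-K1 had a log2 ratio of 0.26, and its light chain B2m was 2.32-fold higher as scaled and 1.59-fold after quantile normalisation.

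The further groups given here had medians from -0.38 to 0.05. Of 36 measured proteasome genes 26 had a log2 ratio below 0, against 1908 of all 3570 genes, with a median of -0.30. DBA was the highest line for 21 of them, against 1059 of all genes. Of the 10 above 0 only Psmb6, a catalytic subunit, reached 2-fold. It had 13801 in DUKs and 3625 in DBA, with 14220 in DU6 and 15926 in DU6i. DBA stood apart as the low line, 3.81-fold. Of the 26 below 0 only Psmc4 reached 2-fold, 2.01-fold lower in DUKs. Cell cycle genes had a median of -0.22, and of 24 measured only Mki67, the proliferation antigen Ki-67, reached 2-fold, 2.50-fold lower in DUKs. Fatty acid oxidation genes had a median of -0.10, with DUKs the lowest of the 4 lines for 13 of 17, against 901 of all 3570 genes. The smooth muscle list had a median of -0.38 with 0 of 12 genes at 2-fold. Of 37 extracellular matrix genes 2 were 2-fold or more higher and 3 lower, with a median of 0.05.

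**Figure D4:**
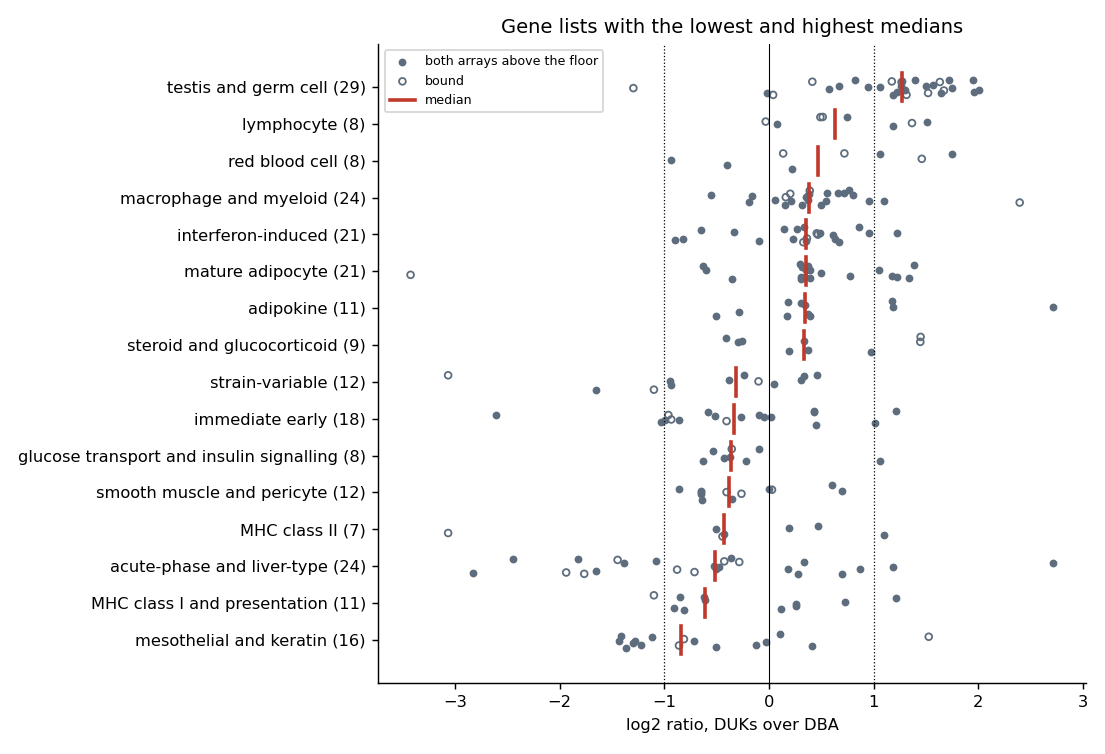
Log2 ratios of DUKs over DBA (horizontal axis) for the measured genes of the 8 lists with the highest and the 8 with the lowest medians among lists of 7 or more measured genes, whose number stands in brackets. Filled points had both arrays above the floor, open points are bounds and red bars are medians, which run from 1.27 for testis and germ cell to -0.84 for mesothelial and keratin.

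Several single genes outside these groups differed by more than 2-fold. Ghr, the growth hormone receptor, had 3710 in DUKs and 926 in DBA, with 1534 in DU6 and 7106 in DU6i, at least 3.63-fold higher in DUKs. Igf1, the growth factor that growth hormone induces, had 3736 in DUKs and 3669 in DBA. Sod1, the cytosolic superoxide dismutase, had 4375 in DUKs and 14293 in DBA, with 12804 in DU6 and 12971 in DU6i, 3.27-fold lower, so that DUKs was the low line. Cyp17a1 and Hsd3b1, enzymes of steroid synthesis in the gonads, were each at least 2.73-fold higher, with 2788 and 2793 in DUKs and signals under the floor in DBA. Egr2, an immediate early transcription factor, had 2661 in DUKs and 16202 in DBA, with 6124 in DU6 and 767 in DU6i, 6.09-fold lower. Amot, the angiostatin-binding protein angiomotin, had 1616 in DUKs and 11038 in DBA, 6.83-fold lower, with a log2 ratio of -1.58 for a second probe set. Pfn1, the actin monomer binder profilin, was 5.78-fold lower by its brighter probe set, and by its other at least 5.78-fold. For Actb, cytoplasmic actin, the gene's probe set read 3970 in DUKs and 9049 in DBA, but the 3 actin control probe sets had log2 ratios of 0.53, 0.96 and 1.01 on chip A and 0.74, 0.93 and 0.54 on chip B, so no direction is given. Slc2a4, the insulin-responsive glucose transporter, had a log2 ratio of -0.63 by 1 probe set and 0.06 by another, and Insr and Irs1 were under the floor in both lines. For Pdxdc1 the 2 probe sets disagreed, with log2 ratios of 2.29 and -3.42, and no direction is given.

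The position of DU6 and DU6i, whose arrays entered the choice of these probe sets only through the floor of each chip, differed between the directions. Of the 342 probe sets higher in DUKs, 158 (46.2%) had both other lines nearer DBA, so that DUKs stood apart, and 43 (12.6%) had both nearer DUKs. Of the 301 lower in DUKs, 57 (18.9%) had DUKs apart and 113 (37.5%) had DBA apart. Where 1 line stood apart, it was thus more often the higher line in both directions. Of the 342 and 301 probe sets, 101 and 93 were bounds, with the low line set to the floor. The classes were not counted without these bounds. In the probe sets with no line apart, DU6 and DU6i were split. DU6i lay with DUKs and DU6 with DBA, the pairing of the pyruvate carboxylase control, in 71 (20.8%) of those higher and 95 (31.6%) of those lower. DU6 lay with DUKs in 70 (20.5%) of those higher, 47 of them on chip B, and in 36 of the 301 lower. After quantile normalisation that class held 37 (10.9%) of 339 higher, 20 of them on chip B. DUKs and DBA had 11.3% of probe sets at 2-fold or more in either direction. The other pairs had 11.5% for DU6i over DBA, 10.5% for DU6 over DU6i, 10.2% for DU6 over DUKs, 10.1% for DU6i over DUKs and 7.96% for DU6 over DBA. These pairs share arrays.

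**Figure D5:**
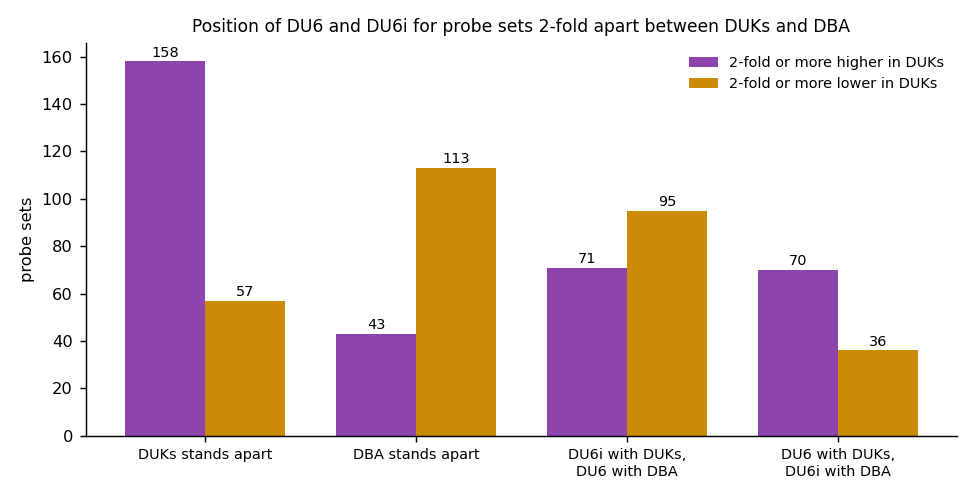
Number of probe sets (bars, vertical axis from 0) 2-fold or more higher (purple) and lower (yellow) in DUKs than in DBA, by where DU6 and DU6i lie. DUKs apart is the most frequent class among the 342 higher (158) and DBA apart among the 301 lower (113).

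Probe sets with no gene symbol or several in the annotation held 120 of the higher and 75 of the lower calls, of 1544 measured. The farthest in each direction were both on chip B. Msa.54.0_f_at had 37380 in DUKs and 4808 in DBA, and 235 in DU6 and 1029 in DU6i, 7.78-fold higher in DUKs. The lowest had -470 in DUKs and 39823 in DBA, and -234 in DU6 and 942 in DU6i, at least 17.6-fold lower. Both were named here after their values were seen. In each a single line was high, DUKs for the first and DBA for the other.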

How the data were processed

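The authors deposited 1 intensity per probe set and array, for which the labels name Data Mining Tool 1.2 and, for the chip analysis, Microarray Suite 4.0.1, with scaling over all probe sets of an array. That these are average differences of perfect-match and mismatch probes is not stated there. Lines were compared within a chip; ratios, not signals, were set side by side between chips, and summed list signals add both chips, with negative signals as 0. Of the arrays used here 12.8% of the chip A intensities of DUKs and 13.5% of those of DBA were below 0. Control probe sets, 110 with the AFFX prefix, were removed. Chip A had 5560 probe sets with 1 gene symbol in the supplied platform annotation, 197 with several and 827 unnamed here, and chip B had 2001, 27 and 4567. For 7544 of them a current mouse symbol was found. The floor of a chip was set where 95% of its negative intensities over the 4 lines were smaller in size, and log2 ratios are DUKs over DBA. A gene was represented by the measured probe set with the highest mean intensity over the 4 lines.

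Named genes are the 12 highest and 12 lowest measured in both lines, the 8 largest bounds in each direction, up to 6 members per list and direction at 2-fold or more, and a set of sentinel genes. Other list members and the genes said to be outside a list were picked after their values were seen, for their roles. The comparison, its gene lists and its rules were chosen with earlier results of these data known. Alternatives were halved and doubled floors, log2 of signal plus floor, quantile normalisation, median centring, both arrays above the floor, no signals over 10000, each chip alone, and the mean over a gene's probe sets. Python 3.11.15, pandas 2.3.3 and numpy 2.4.6 were used, and the code was tested on simulated data.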

Additional observations from a re-analysis of the deposited data

How the results depend on the processing

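The counts of probe sets depended on the floor: 591 were higher and 511 lower with the floor halved, 171 and 144 with it doubled, and 168 lower with log2 of signal plus floor; by construction these settings change how far low signals count. Chip A alone gave 186 higher and 155 lower and chip B 156 and 146, since each holds part of the probe sets. With the floor doubled, 77 of those higher and 28 of those lower had DUKs apart, and 18 and 55 had DBA apart. The adipocyte median was 0.92 on chip B alone. The MHC class II median of -0.43 turned to 0.19 with the floor halved or with both arrays above it and to 0.22 on chip A, and the class I median of -0.61 to 0.059 on chip B; the cause was not tested. Rpl6 stood at -0.13 after quantile normalisation and Pdxdc1 at -0.56 as the mean of its disagreeing probe sets. Of 407 recomputed list medians 382 moved by less than 1 SD of a single log2 ratio, and 25 of these 382 changed sign. Of the other 25, which moved by 1 SD or more, the sign turned in 11. Besides the 4 above, these were medians within 1 SD of 0 to begin with: epididymis -0.86 without signals over 10000 and -1.34 on chip B, seminal vesicle -1.04 with the floor doubled and -3.14 on chip B, ribosomal protein -0.49 without signals over 10000, metalloproteinase -0.27 on chip B and immediate early 0.33 on chip A. Of 121 named genes at 2-fold, 120 kept their direction and 105 the size after quantile normalisation, and 86 the size with the floor doubled. The all-gene median was -0.17 on chip B alone. No paired analysis was possible because each line had 1 pool.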

Other observations

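Further epithelial genes outside the keratin list lay lower in DUKs, with DBA the highest line for all 9 of those looked at, which were chosen after their values were seen. Elf3, an epithelial transcription factor, had 196 in DUKs and 2985 in DBA, with 417 in DU6 and -526 in DU6i. Agr2, a protein disulphide isomerase of secretory epithelia, had 195 in DUKs and 2457 in DBA, with 1171 in DU6 and -70 in DU6i. Ezr, which links the plasma membrane to actin, had 4950 in DUKs and 14727 in DBA, 2.97-fold lower. Myo5b, a motor of apical recycling, was 2.75-fold lower and Cd24a, a surface glycoprotein of epithelial and B cells, 2.23-fold. Hoxb7, a homeobox gene of posterior segments, had 4312 in DUKs and 17711 in DBA, with 9344 in DU6 and 3939 in DU6i, 4.11-fold lower.

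Red blood cell genes lay higher in DUKs by a median log2 ratio of 0.47 over 8 measured genes, 3 of them at 2-fold or more. Hba-a1, alpha globin, had 73732 in DUKs and 21917 in DBA, with 59306 in DU6 and 24005 in DU6i, 3.36-fold higher as scaled and 2.52-fold after quantile normalisation. Slc4a1, the anion exchanger of the red cell, had 2816 in DUKs and was under the floor in DBA, while Alas2, of haem synthesis in erythroid cells, had 7094 in DUKs and 9352 in DBA. A second Slc4a1 probe set, on chip B, was under the floor in every line.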
